A study of Mus musculus with 13 samples.

Results

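Transcripts of 4 genes of lipid export and transport, Abca1, Abcb4, Apoe and Apod, were followed on 13 Affymetrix MG-U74Av2 arrays hybridised with RNA of mouse whole brain hemispheres. A probe set is a group of short DNA probes that are read out together on such an array. The 4 genes held 6 of the 12488 probe sets: all probe sets that the array's annotation gives to 1 of these genes alone. Abca1 and Apoe had 2 probe sets each, and Abcb4 and Apod had 1 each. The genes were chosen on measured values: Abca1 from its difference between genotypes averaged over treatment, Abcb4 from its difference between untreated R6/2 and untreated wild type mice, and the 4 together from earlier fits of these 13 arrays over the 4 groups. Their levels and differences between groups are therefore given as a description. Counts of their probe sets past the threshold of the fit over all probe sets are given beside the share over all, and nothing is read from them.

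R6/2 mice are transgenic for the first exon of human huntingtin with an expanded CAG repeat, driven by the human promoter, and model Huntington's disease. The groups were treated R6/2 mice (3 arrays), untreated R6/2 mice (4 arrays), treated wild type mice (3 arrays) and untreated wild type mice (3 arrays). The triple treatment was tacrine, an inhibitor of cholinesterases, at 2.7 mg/kg/day from 5 weeks of age, moclobemide, an inhibitor of monoamine oxidase A, at 10 mg/kg/day, and creatine at 1% in wet mash. The labels list these agents for untreated samples too, so the treatment of each array comes from its title alone. An age at harvest, 8 weeks, is given for 1 untreated wild type sample only, and no sex or strain background is given. The descriptions give each array a lot batch number of its own, except that treated R6/2 array 1 repeats the number of untreated R6/2 array 4, so no batch could be fitted. Nothing in the labels ties each array to a mouse of its own, so a p-value here measures only the spread between these samples.

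Neurons and glia of the adult brain make their own cholesterol, since plasma lipoproteins do not cross the blood-brain barrier. Astrocytes load cholesterol and phospholipid onto apolipoprotein E through the exporter ABCA1, and neurons take up these particles through receptors of the low-density lipoprotein receptor family. Oxysterols switch on Abca1 and part of this pathway through the liver X receptors (LXR). Apolipoprotein D is a lipocalin that binds small hydrophobic molecules and is made in brain by glia and by cells of the meninges and vessel walls. ABCB4 moves phosphatidylcholine across the membrane of liver cells into bile.

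The promoters of the exporter and of the carrier that both lay higher in R6/2 brain are shown because the Abca1 promoter holds letters like those of the element through which LXR is known to act on it, and the Apod promoter does not. Both run 5′ to 3′ over 250 bases before and 50 after the RefSeq start in GRCm38.p6, on the minus strand, at chr4:53159846-53160145 for Abca1 and chr16:31314759-31315058 for Apod. Capitals mark, in this order, an E-box (CACGTG), a repeat of TGACC followed after 5 bases by TAACC, and a TATA box (TATAAA), each searched on both strands, and the Apod window holds none of the 3.
Abca1 promoter: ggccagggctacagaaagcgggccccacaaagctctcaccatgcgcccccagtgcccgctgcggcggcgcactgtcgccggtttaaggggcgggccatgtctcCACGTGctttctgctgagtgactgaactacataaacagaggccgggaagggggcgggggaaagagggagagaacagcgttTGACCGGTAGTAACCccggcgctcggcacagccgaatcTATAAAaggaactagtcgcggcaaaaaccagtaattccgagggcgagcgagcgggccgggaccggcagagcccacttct
Apod promoter: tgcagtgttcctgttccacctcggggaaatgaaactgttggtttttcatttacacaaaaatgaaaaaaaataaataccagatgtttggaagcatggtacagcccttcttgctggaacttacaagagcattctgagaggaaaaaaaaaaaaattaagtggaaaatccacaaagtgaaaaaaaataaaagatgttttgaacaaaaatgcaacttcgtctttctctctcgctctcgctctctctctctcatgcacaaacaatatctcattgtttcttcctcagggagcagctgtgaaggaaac

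The repeat lay 67 to 53 bases before the Abca1 start and occurred in 16 of 32851 promoters of the same length, 0.0487% of them. The E-box lay 147 to 142 bases before the start, and 7.15% of promoters held this motif. The TATA box lay 29 to 24 bases before the start, and 13.6% of promoters held one. Promoters were found for all 4 genes, 6 in all because Apoe had 3, and only that of Abca1 held the repeat or the E-box. Of the Apoe promoters, 1 held 2 overlapping TATA matches. The Abca1 window had 62.7% G and C with 26 CpG dinucleotides, and the Apod window had 37.3% with 4, against medians of 52.7% and 7 over all promoters. The repeat searched for was set to letters like those of the known Abca1 element. Its match in Abca1 and its low share elsewhere are therefore not findings. A match of letters is a description of the window and not evidence of binding.

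All values below are the deposited signals, scaled by the authors to a common mean per array, on a linear scale. Differences are log2 differences with their standard error (SE) from a single limma fit with 1 mean per group, after values under 3.1 were set to 3.1. The fit took the 7453 probe sets whose mean log2 signal reached the 40th percentile, equal to a signal of 24.9, and 5 of the 6 probe sets of the 4 genes passed this filter. The arrays had median signals of 39.6 to 45.1. Markers of neurons, astrocytes and oligodendrocytes were found, as the labelled tissue requires. Of those with a probe set, all 9 neuron and all 7 astrocyte markers passed the filter, and 8 of 9 oligodendrocyte markers did. The exception was Cnp, at 2 to 10. No marker probe set was at 0 on any array.

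Untreated R6/2 arrays 3 and 2 stood apart from the others. They scored 45.8 and 25.4 on the first principal component, which took 33.9% of the variance, and no other array scored above 4.09. Each of the 66 control probe sets on treated R6/2 array 1 was lower than on untreated R6/2 array 2 by the same factor of 1.2 (within 0.06). The same factor linked treated R6/2 array 3 with untreated R6/2 array 3, and untreated R6/2 array 1 with untreated R6/2 array 4, so 3 pairs of arrays share their control values up to a constant. The untreated genotype differences of the 4 genes are given with and without untreated R6/2 arrays 2 and 3. So are those of the other genes of sterol and lipoprotein handling that were called there. Marker sums, marker calls and most other results are given with all arrays only and may rest on these 2 arrays.

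Abca1, which exports cholesterol and phospholipid to apolipoproteins, lay higher in R6/2 brain by its brighter probe set, 94354_at. This probe set had 124.8, 127.7 and 122 in treated R6/2 mice and 140.7, 150.1, 205.3 and 104.8 in untreated R6/2 mice. It had 78.2, 89.3 and 68.6 in treated wild type mice and 73.3, 71.2 and 65.9 in untreated wild type mice. All 7 R6/2 arrays, at 104.8 to 205.3, lay above all 6 wild type arrays, at 65.9 to 89.3. Of all kept probe sets, 3.81% separated the genotypes in this way, in either direction. The choice of Abca1 used this contrast, and nothing is read from the separation.

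The group means of Abca1 were 150 ± 41.6 in untreated R6/2 mice (SD, n = 4) and 70.1 ± 3.81 in untreated wild type mice (SD, n = 3), a ratio of 2.14. The log2 difference was 1.06 ± 0.18 (SE). Among treated mice the means were 125 ± 2.85 in R6/2 and 78.7 ± 10.4 in wild type (SD, n = 3 each), with a ratio of 1.59 and a log2 difference of 0.67 ± 0.19. Averaged over treatment the genotype difference was 0.87 ± 0.13. The spread was uneven: the untreated R6/2 arrays covered a range wider than any other group, with array 3 highest and array 4 lowest.

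For Abca1 94354_at, treated minus untreated was -0.23 ± 0.18 in R6/2 mice and 0.16 ± 0.19 in wild type mice, and the signals of treated and untreated arrays overlapped in each genotype. The treatment effect in R6/2 minus that in wild type was -0.39 ± 0.27. In order of mean level, untreated R6/2 and treated R6/2 overlapped, treated R6/2 and treated wild type did not, and treated and untreated wild type overlapped. Without untreated R6/2 arrays 2 and 3 the untreated genotype difference was 0.79, and the treatment difference in R6/2 was 0.040.

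The dimmer Abca1 probe set, 97198_at, gave another pattern. It had 62.9, 57.3 and 54.1 in treated R6/2 mice and 41.7, 41.9, 31.7 and 62.2 in untreated R6/2 mice. It had 13.3, 42.5 and 19.4 in treated wild type mice and 46, 52.7 and 53.5 in untreated wild type mice. Treated wild type arrays 1 and 3 were lowest, and untreated R6/2 arrays overlapped untreated wild type arrays.

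For 97198_at the genotype difference was -0.23 ± 0.32 in untreated mice and 1.38 ± 0.34 in treated mice, and treated minus untreated was 0.43 ± 0.32 in R6/2 and -1.19 ± 0.34 in wild type. The treatment effect in R6/2 minus that in wild type was 1.62 ± 0.46. The untreated genotype difference thus had opposite signs in the 2 probe sets of the gene, while in treated mice both were above 0. The treated genotype difference and the wild type treatment difference of 97198_at both use treated wild type arrays 1 and 3, which lay under the filter level. Without untreated R6/2 arrays 2 and 3 the untreated genotype difference of 97198_at was 0.01. Across the 13 arrays the 2 probe sets correlated at r = 0.20, and at -0.25 after group means were subtracted. This correlation is a description of arrays that share a hybridisation each, and it has no test. Which transcripts each probe set reads was not analysed here.

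**Figure D1:**
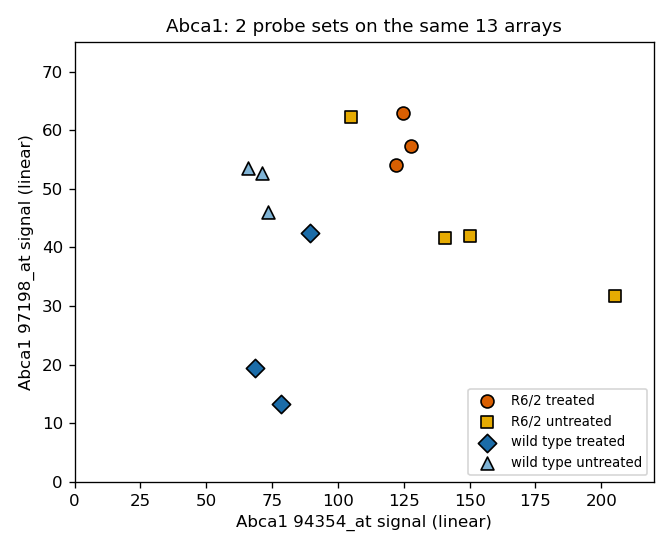
Signal of Abca1 probe set 94354_at (x axis, linear) against that of 97198_at (y axis, linear) on the same 13 arrays, 1 point per array, marked by group. On the x axis all R6/2 arrays lie at 104.8 or above and all wild type arrays at 89.3 or below, while on the y axis treated wild type arrays reach down to 13.3 and the other groups overlap in part.

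Abcb4, the phosphatidylcholine transporter, had a geometric mean signal of 28.1, just above the filter at 24.9. Probe set 94733_at had 31.4, 29.8 and 21.6 in treated R6/2 mice and 36.3, 37.7, 42.5 and 33.8 in untreated R6/2 mice. It had 30.3, 37.2 and 37 in treated wild type mice and 22.5, 16.8 and 11.1 in untreated wild type mice. The 3 untreated wild type arrays held 3 of the 4 lowest values, and treated R6/2 array 3 lay among them. All 3 untreated wild type arrays lay under the filter level of 24.9. The probe set passed the filter through the other groups, whose means lay above that level.

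The Abcb4 means were 37.6 ± 3.66 in untreated R6/2 mice (SD, n = 4) and 16.8 ± 5.70 in untreated wild type mice (SD, n = 3), a ratio of 2.24, and the log2 difference was 1.22 ± 0.25. Among treated mice the means were 27.6 ± 5.26 in R6/2 and 34.8 ± 3.93 in wild type (SD, n = 3 each), with a difference of -0.35 ± 0.27 and overlapping arrays. Treated minus untreated was -0.46 ± 0.25 in R6/2 and 1.10 ± 0.27 in wild type, without overlap in either genotype. The treatment effect in R6/2 minus that in wild type was -1.56 ± 0.36. The untreated genotype difference and the wild type treatment difference share the 3 untreated wild type arrays, so these values are not independent of each other.

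Apoe, the main lipoprotein carrier of the brain, was read by probe set 95356_at with a mean signal of 2782 over the 13 arrays. It had 2575.6, 3170.2 and 2421.7 in treated R6/2 mice and 2479.7, 2273.7, 2207.8 and 2322 in untreated R6/2 mice. It had 2477.1, 3054.8 and 3651.6 in treated wild type mice and 2882.2, 3279.2 and 3371.1 in untreated wild type mice. All 4 untreated R6/2 arrays lay below all 3 untreated wild type arrays, while treated arrays of the 2 genotypes overlapped.

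The Apoe means were 2321 ± 116 in untreated R6/2 mice (SD, n = 4) and 3178 ± 260 in untreated wild type mice (SD, n = 3), a ratio of 0.73. The log2 difference was -0.45 ± 0.13, smaller in size than those of Abca1 94354_at and Abcb4 between the same groups. Treated means were 2723 ± 395 in R6/2 and 3061 ± 587 in wild type (SD, n = 3 each), with a difference of -0.16 ± 0.14. Averaged over treatment the genotype difference was -0.31 ± 0.10. Treated minus untreated was 0.22 ± 0.13 in R6/2 and -0.07 ± 0.14 in wild type, and the first minus the second of these was 0.29 ± 0.19. Without treated wild type array 1 the treatment difference in wild type was 0.08. In order of mean level, untreated wild type, treated wild type, treated R6/2 and untreated R6/2, each group overlapped the next.

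The other Apoe probe set, 161321_i_at, read almost nothing. Its signals ran from 2.2 to 15.1 in treated R6/2 mice, 2.7 to 6.1 in untreated R6/2 mice, 2.7 to 12.2 in treated wild type mice and 2.5 to 5.2 in untreated wild type mice. On 5 of the 13 arrays it was at or below 3.1. It failed the filter and was not tested.

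Apoe is made mainly by astrocytes, and the summed signal of the astrocyte markers was also lower in R6/2 mice. The 7 markers measured, of 11 listed, summed to 2867 to 3250 in treated R6/2 mice and 2877 to 3379 in untreated R6/2 mice, against 3438 to 3764 in treated wild type mice and 3359 to 3402 in untreated wild type mice. In untreated mice 2 of the 7 fell in R6/2: Aldoc, a glycolytic enzyme, fell by 0.44 and Slc1a2, a glutamate transporter, fell by 0.63 on the log2 scale (adjusted p = 0.0423 and 0.0475 in limma), while 4 of the 7 had differences above 0 and the median was 0.18. The sum thus rests largely on Aldoc, whose median signal was 1441. Microglia also make apolipoprotein E, and 12 of their markers summed to 1350 to 1419 in treated R6/2 mice, 1338 to 1497 in untreated R6/2 mice, 1224 to 1302 in treated wild type mice and 1153 to 1431 in untreated wild type mice. Of the 8 kept, Ctss, a lysosomal protease, rose in untreated R6/2 mice (0.72, adjusted p = 0.0198 in limma) and none fell, 12.5% of them against 11.9% of all kept probe sets called in that comparison, and the median was -0.23. The part of either cell type in the Apoe difference was not tested. In tissue such as this, fewer cells of a type and less RNA per cell cannot be told apart.

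Apod, the lipocalin carrier, lay higher in R6/2 brain. Probe set 93592_at had 431.3, 533.1 and 348 in treated R6/2 mice and 409.8, 420.6, 249.3 and 489.3 in untreated R6/2 mice. It had 208.4, 254.4 and 277.3 in treated wild type mice and 251.2, 301.6 and 297.4 in untreated wild type mice. Of the 7 R6/2 arrays, 6 lay above the highest wild type array at 301.6. The exception was untreated R6/2 array 3, which had the highest Abca1 signal of all arrays and the lowest Apod signal of the R6/2 arrays.

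The Apod means were 437 ± 92.7 in treated R6/2 mice and 247 ± 35.1 in treated wild type mice (SD, n = 3 each), a ratio of 1.77, and the log2 difference was 0.81 ± 0.22. Untreated means were 392 ± 102 in R6/2 (SD, n = 4) and 283 ± 27.97 in wild type (SD, n = 3), with a ratio of 1.38 and a difference of 0.43 ± 0.21. Without untreated R6/2 array 3 the untreated difference was 0.63, and without arrays 2 and 3 it was 0.66. Averaged over treatment the genotype difference was 0.62 ± 0.15. Treated minus untreated was 0.18 ± 0.21 in R6/2 and -0.21 ± 0.22 in wild type, and the treatment effect in R6/2 minus that in wild type was 0.38 ± 0.30. Without untreated R6/2 array 3 the treatment difference in R6/2 was -0.03. In order of mean level, treated R6/2, untreated R6/2, untreated wild type and treated wild type, each group overlapped the next.

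Apod is made by oligodendrocytes and by fibroblasts of the meninges, and the summed markers of these cells went opposite ways. Oligodendrocyte markers, 9 in all, summed to 2812 to 3809 in treated R6/2 mice and 2507 to 3248 in untreated R6/2 mice, against 4122 to 4894 in treated wild type mice and 4228 to 4676 in untreated wild type mice. In untreated mice 4 of the 8 kept (Mbp, Mag, Mobp and Ugt8a, genes of myelin) fell in R6/2, against 11.9% of all kept probe sets called, and the median was -0.54. Markers of meninges and fibroblasts, 9 in all, summed to 3487 to 4182 in treated R6/2 mice and 3291 to 4315 in untreated R6/2 mice, against 2784 to 3528 in treated wild type mice and 2577 to 3135 in untreated wild type mice. In untreated mice 2 of these 8 kept, Col1a1, a collagen chain, and Igf2, a growth factor, rose in R6/2, and the median was 0.27. The sum rests largely on Ptgds, whose median signal was 1922 and whose difference was 0.39 (adjusted p = 0.204 in limma). Of the 8 kept, 7 had differences above 0 and 1 below. Among treated mice no marker of either list passed the threshold in limma, but the medians were close to those of untreated mice: -0.49 for oligodendrocytes (5 of 8 with an unadjusted p under 0.05) and 0.21 for meninges and fibroblasts (2 of 8). Of all 7453 kept probe sets, 685 had an unadjusted p under 0.05 between treated genotypes. Averaged over treatment 5 of the 8 oligodendrocyte markers fell and 2 of the 8 of meninges and fibroblasts rose, against 6.61% of all kept probe sets called. The part of either cell type in the Apod levels was not tested.

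**Figure D2:**
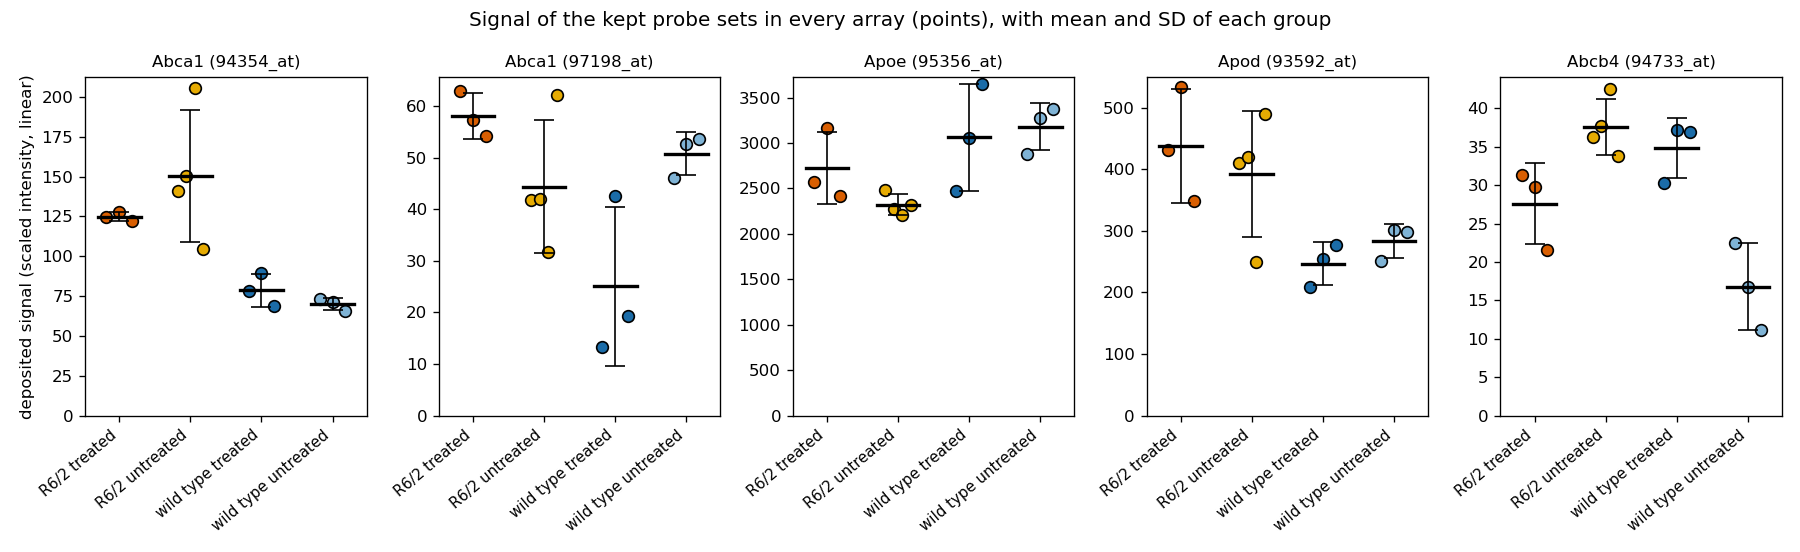
Deposited signal (y axis, linear from 0) of the 5 kept probe sets of Abca1, Apoe, Apod and Abcb4 in every array, by group (x axis: treated R6/2, untreated R6/2, treated wild type, untreated wild type). Points are arrays, the thick bar is the group mean and the whiskers are 1 SD. Abca1 94354_at is at 104.8 or above in every R6/2 array and at 89.3 or below in every wild type array, and Abcb4 is lowest in untreated wild type mice, at 11.1 to 22.5.

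Set side by side, the 4 genes differed in pattern. In untreated mice, 3 of the 5 kept probe sets (Abca1 94354_at, Apoe and Abcb4) passed an adjusted p of 0.05 between genotypes, where 11.9% of all kept probe sets did. In treated mice none of the 5 passed in limma, against 0.792% of all, and averaged over treatment 2 passed (Abca1 94354_at and Apod), against 6.61%. None of the 5 passed for treatment in R6/2 mice, in wild type mice or averaged over genotype, or for the interaction, and the share over all kept probe sets was 0% in each of these 4 limma comparisons. At an unadjusted p under 0.05, 1262, 769, 936 and 1003 of the 7453 probe sets passed in these, and the smallest adjusted p was 0.246, 0.0522, 0.125 and 0.305. The choice of the genes used these contrasts, so the counts among the 5 are a description. Abcb4 is among the 5 only through groups other than untreated wild type, whose arrays lay under the filter level.

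Groups did not overlap for 3 of the 5 probe sets between genotypes in untreated mice, where the share over all kept probe sets was 26.2%, and for 3 of 5 in treated mice (both Abca1 probe sets and Apod), where it was 16.8%. Treated and untreated arrays did not overlap for 1 of 5 in R6/2 mice (Abcb4), where the share was 10.6%, and for 2 of 5 in wild type mice (Abca1 97198_at and Abcb4), where it was 21.8%. Where Abca1 97198_at is counted, the treated wild type group holds 2 arrays under the filter level. The median of the 5 log2 differences was 0.43 between untreated genotypes and 0.67 between treated genotypes, against 0.04 and 0.03 over all kept probe sets. It was 0.18 for treatment in R6/2 and -0.07 for treatment in wild type, against 0.02 and 0.01. The choice of the genes used these contrasts and Abca1 enters with 2 probe sets, so these medians and overlaps are a description. Leaving out 1 array at a time, the untreated genotype difference ranged from 0.90 to 1.22 for Abca1 94354_at, 0.95 to 1.46 for Abcb4, -0.52 to -0.41 for Apoe and 0.31 to 0.63 for Apod. Without untreated R6/2 arrays 2 and 3 together it was 1.12 for Abcb4 and -0.40 for Apoe.

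Over the 13 arrays, log2 signals of Abca1 94354_at and Apoe correlated at r = -0.74, which became -0.23 once group means were subtracted. Abca1 94354_at and Apod correlated at 0.43 over all arrays and at -0.71 within groups. Apoe and Apod correlated at -0.18 over all arrays and at 0.65 within groups. These pairs are read from the same hybridisations, and the values have no test.

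**Figure D3:**
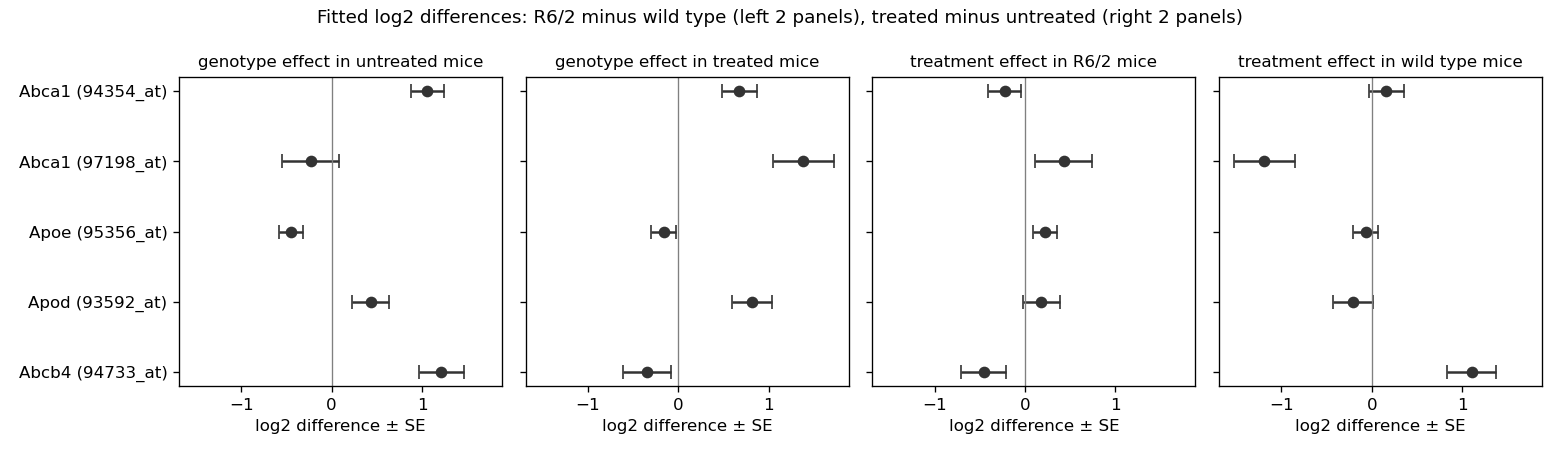
Log2 differences (x axis, with bars of 1 SE) of the 5 kept probe sets of the 4 genes (y axis) in 4 comparisons: R6/2 minus wild type in untreated and in treated mice, and treated minus untreated in R6/2 and in wild type mice. Abcb4 is at 1.22 in the untreated genotype panel and at 1.10 in the wild type treatment panel, which share the untreated wild type arrays, and Apoe is below 0 in both genotype panels, at -0.45 and -0.16.

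The genes most alike to each member over the 13 arrays were found among the other kept probe sets annotated to 1 gene, by Pearson's r of log2 signal. For Abca1 94354_at they were Sdhaf1, an assembly factor of succinate dehydrogenase (r = 0.96), Sumo3, a ubiquitin-like modifier (0.95), and Nfyc, a subunit of the transcription factor NF-Y (0.95). For Abcb4 they were Myl9, a myosin light chain of smooth muscle (0.95), Col8a1, a collagen chain (0.91), and Eif3f, a translation initiation factor (0.90). For Apoe they were Ptprg, a receptor tyrosine phosphatase (0.92), Srm, spermidine synthase (0.92), and Prcc (0.91). For Apod they were Stag2, a cohesin subunit (0.89), Anxa5, annexin A5 (0.88), and Lsm1, an RNA-binding protein of mRNA decay (0.88).

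With group means subtracted, these 12 values of r were 0.72 to 0.89. They are the highest of 6738 or 6739 each, so a high r was bound to be found, and they are given as a description. The Abca1 look-alikes had means that were high in R6/2 in the same way: Nfyc averaged 299.9 in treated R6/2, 333 in untreated R6/2, 213 in treated wild type and 213 in untreated wild type mice. Col8a1 shared the low untreated wild type level of Abcb4, with 32.4 in treated R6/2, 32.9 in untreated R6/2, 31.4 in treated wild type and 18.2 in untreated wild type mice.

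Other genes of sterol and lipoprotein handling were taken from a list of 66, of which 47 had a probe set of their own and 28 passed the filter, each read by its brightest probe set. Between untreated R6/2 and untreated wild type mice, 5 of the 28 (17.9%) passed an adjusted p of 0.05 in limma, against 11.9% of all kept probe sets: 1 rose and 4 fell. The median log2 difference of the 28 was -0.14, against 0.04 over all kept probe sets. With 1 array left out the count was 2, 0 and 1 without untreated wild type arrays 1, 2 and 3, and 2 and 1 without untreated R6/2 arrays 2 and 3. It was 4 to 6 without any other single array. The list was chosen with earlier results of these arrays known.

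By role, 2 of the 3 kept lipoprotein enzymes fell in untreated R6/2 mice, where 11.9% of all kept probe sets were called in either direction. With so few genes in each role, nothing is read from these counts. Lcat, which esterifies cholesterol on lipoproteins, averaged 74.9 ± 12.4 in untreated R6/2 (SD, n = 4) and 123 ± 13.5 in untreated wild type mice (SD, n = 3). Its log2 difference was -0.72 ± 0.15, with an adjusted p of 0.011 in limma, and its dimmer probe set gave 0.18 ± 0.46 below the filter. Pltp, which transfers phospholipid between lipoproteins, averaged 245 ± 36.0 in untreated R6/2 (n = 4) and 331 ± 21.9 in untreated wild type mice (n = 3), with a log2 difference of -0.44 ± 0.14 and an adjusted p of 0.0475 in limma. Lcat passed in 20 of 23 alternative settings and Pltp in 8 of 23.

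Among receptors 2 of 5 fell, beside 11.9% of all kept probe sets called in that comparison. Sorl1, a sorting receptor of the low-density lipoprotein receptor family, averaged 47.3 ± 19.8 in untreated R6/2 (n = 4) and 106 ± 25.3 in untreated wild type mice (n = 3), with a log2 difference of -1.22 ± 0.30 and an adjusted p of 0.0226 in limma. Lsr, a receptor that takes up lipolysed lipoproteins, averaged 22.9 ± 9.32 in untreated R6/2 (n = 4) and 56.1 ± 9.17 in untreated wild type mice (n = 3), with a log2 difference of -1.37 ± 0.37 and an adjusted p of 0.0316 in limma. Its other probe set, below the filter, gave 0.68 ± 0.72. The 5 receptors had a median of -0.28.

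Of the 11 kept genes that move or store lipid inside cells, 1 rose, beside 11.9% of all kept probe sets called. Fabp7, the fatty acid binding protein of radial glia and astrocytes, averaged 237 ± 58.3 in untreated R6/2 (n = 4) and 133 ± 30.3 in untreated wild type mice (n = 3), with a log2 difference of 0.82 ± 0.21 and an adjusted p of 0.0242 in limma. It passed in 16 of 23 alternative settings. None of the 3 exporters, 2 carriers and 4 regulators passed in that comparison (1, 1 and 0 of them had an unadjusted p under 0.05). Of all 7453 kept probe sets, 2253 had such a p there. Abcg1, the other LXR-driven cholesterol exporter of glia, had a log2 difference of -0.02 ± 0.14. Neuron markers, 9 in all, summed to 6726 to 7822 in untreated R6/2 mice against 8742 to 9084 in untreated wild type mice. Of these 9, 4 (Syp, Syn2, Eno2 and Map2) fell in untreated R6/2 mice, beside the same 11.9% of all kept probe sets. The part of neurons in these results was not tested. Without untreated R6/2 arrays 2 and 3 together, none of the 5 passed: Lcat gave -0.59 (adjusted p = 0.051 in limma), Lsr -1.27 (0.139), Sorl1 -0.83 (0.192), Fabp7 0.51 (0.204) and Pltp -0.26 (0.297). The differences of Pltp and Fabp7 were smaller by over 1.5 times than with all arrays, and that of Lsr was about as large.

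Between treated R6/2 and treated wild type mice none of the 28 passed in limma. An unadjusted p under 0.05 was found for 685 of all 7453 kept probe sets and for 1 of the 28. Lowest p-values belonged to Scarb1, a receptor for high-density lipoprotein (-0.38 ± 0.18, adjusted p = 0.538 in limma), Abcb1a, a drug exporter of the blood-brain barrier (-0.37 ± 0.20, 0.634), and Abca2, an exporter of myelin-forming cells (0.25 ± 0.14, 0.664). Averaged over treatment Lcat fell by 0.42 on the log2 scale (SE 0.11, adjusted p = 0.0313 in limma), the only 1 of the 28 (3.57%), beside 6.61% of all kept probe sets. That call was lost without any 1 of the treated R6/2 arrays, treated wild type array 2 or 3, or untreated wild type array 1 or 2. Pltp (-0.31, 0.0753) and Fabp7 (0.47, 0.0790) were next. In treated mice Lcat averaged 88.2 ± 4.03 in R6/2 and 95.9 ± 5.47 in wild type (n = 3 each).

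For treatment none of the 28 passed in limma in R6/2 mice (3 with an unadjusted p under 0.05), in wild type mice (4) or averaged over genotype (3), and none for the interaction (5). Over all 7453 kept probe sets, 1262, 769, 936 and 1003 had an unadjusted p under 0.05 in these comparisons. Among the 28, the lowest p-values in R6/2 mice belonged to Abca2 (0.31 ± 0.13), Abcb1a (-0.44 ± 0.18) and Lrp1, a large receptor for apolipoprotein E (0.33 ± 0.15), with adjusted p-values of 0.269 to 0.281. In wild type mice they belonged to Fabp7 (0.82 ± 0.22), Star, which carries cholesterol into mitochondria (0.83 ± 0.23), and Sorl1 (-1.09 ± 0.32), with adjusted p-values of 0.297 to 0.319. Fabp7 averaged 231 ± 17.4 in treated wild type and 133 ± 30.3 in untreated wild type mice (n = 3 each). Its means were 237 in untreated R6/2 and 256 in treated R6/2 mice, so untreated wild type mice alone stood apart. Sorl1 averaged 106 in untreated wild type mice and 47.3 to 52.1 in the other groups. For both genes the untreated genotype difference and the wild type treatment difference share the untreated wild type arrays. These differences are therefore not independent of each other. Star (0.64), Fabp7 (0.47) and Abcg1 (0.26) led the treatment effect averaged over genotype, with adjusted p-values of 0.252 to 0.325. Abca2 (0.55), Sorl1 (1.26) and Lcat (0.60) led the interaction, with 0.315 to 0.316.

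**Figure D4:**
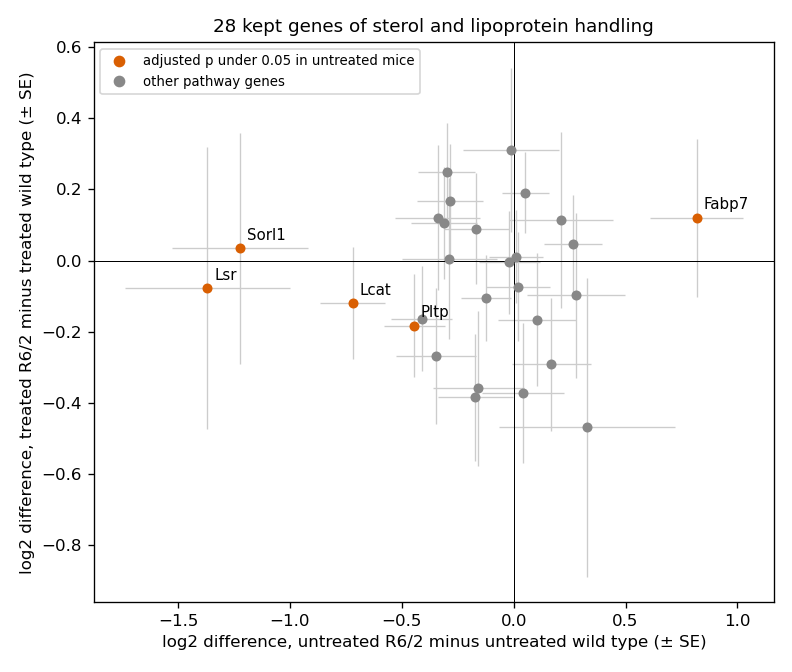
Log2 differences between R6/2 and wild type of the 28 kept pathway genes in untreated mice (x axis) and in treated mice (y axis), with bars of 1 SE. The 5 named genes passed an adjusted p of 0.05 in untreated mice, where Fabp7 lies at 0.82 and Lsr at -1.37, and none of the 28 passed in treated mice.

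Known targets of LXR were counted as a list of their own, since Abca1 is 1 of them. Of 13 genes listed, 9 passed the filter, and 8 of the 13 are also on the list above. Pltp alone passed, in untreated mice, where it fell. This is 1 of 9 (11.1%), close to the 11.9% of all kept probe sets. The median log2 difference of the 9 was -0.04 in untreated mice and -0.18 in treated mice, against 0.04 and 0.03 over all kept probe sets. None of the 9 passed in limma between treated genotypes (1 with an unadjusted p under 0.05), averaged over treatment (2), for treatment in R6/2 or in wild type mice (0 each), for treatment averaged over genotype (1) or for the interaction (1). Of all 7453 kept probe sets, 685, 1788, 1262, 769, 936 and 1003 had such a p in these comparisons, in that order. These counts take the brightest probe set of each gene. Scd1, a fatty acid desaturase, was -0.38 ± 0.12 averaged over treatment by its brightest probe set (adjusted p = 0.0767 in limma), and a dimmer kept probe set of it gave -0.41 ± 0.10 (adjusted p = 0.0278), a gene named after its values were seen.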

How the data were processed

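Arrays were grouped by genotype and treatment from their titles. Per the labels, total RNA of whole brain hemispheres was measured on 13 arrays, and the authors deposited linear intensities. As the values themselves show, the authors had brought every array to a 2% trimmed mean near 100 (100.047 to 100.128). The software and its settings are not given in the sources used here. The 66 control probe sets were left out, a floor of 3.1, the 10th percentile of the signals, was applied before taking log2. Of the 12422 remaining probe sets, those at or over the 40th percentile of mean log2 were kept. The platform annotation named 1 gene for 10833 probe sets, several for 396 and none for 1193.

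Group means were fitted over all 13 arrays with limma 3.58.1 in R 4.3.3 (lmFit, eBayes with an intensity trend), and p-values were adjusted by Benjamini-Hochberg over the 7453 kept probe sets. The fit was tested on simulated data. The 4 genes, the list of 66 pathway genes, the 13 LXR targets and the 8 cell marker lists were chosen with earlier results of these data known. A pathway gene was named where it passed in a comparison (at most 8), or, where fewer than 3 passed, where its p was among the 3 smallest. The 3 probe sets most correlated with each of the 4 genes were also named, Abcg1 was named in the untreated comparison for its role, and Scd1 and Dbi were named after their values were seen. Alternatives changed the normalization (quantile, median), the floor (5th, 20th percentile), the filter (none, 60th percentile), the arrays in the fit, array weights, the variance trend and the probe set standing for a gene. Precision is limited by the number of arrays, and no depth of sequencing exists for them.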

Additional observations from a re-analysis of the deposited data

Results flagged for a closer look

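Abcb4 differed in direction between genotypes under treatment. Its log2 difference, treated minus untreated, was -0.46 in R6/2 mice, where every treated array lay below every untreated array. In wild type mice it was 1.10, where every treated array lay above every untreated array. The treatment effect in R6/2 minus that in wild type, -1.56 ± 0.36, did not pass an adjusted p of 0.05 in the limma fit over all kept probe sets. Abcb4 was chosen from values of these groups, so this is a description and not independent evidence. Abcb4 was dim, with signals of 11.1 to 42.5 on all arrays. The untreated R6/2 group, the only group with 4 arrays, was the only one examined for a sample far from the others, and none of its 5 kept probe sets passed Dixon's critical value, which chance passes in about 1 of 20 groups.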

How the results depend on the processing

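Across 35 log2 differences of the 4 genes, 643 of 646 values under other settings stayed within 1 residual SD of the reported value, and none reversed a called difference. The 3 that moved were those of Abca1 94354_at without untreated R6/2 arrays 2 and 3: 0.79 between untreated genotypes, 0.040 for treatment in R6/2 mice and -0.12 for the interaction. The sign changed in 17 of the 646, among treatment differences of Abca1 94354_at, Apod and Apoe and in the untreated genotype difference of Abca1 97198_at. Part of the 646 could not move. The filter, the variance trend, the lower floor and a fit of only the arrays compared leave these differences of group means as they are. Those values were fixed in advance and say nothing about stability.

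The count of pathway genes past the threshold between untreated genotypes, 5 as reported, was 1 with no filter on dim probe sets, 3 with the filter at the 60th percentile, 1 with only the arrays compared and 1 without untreated R6/2 arrays 2 and 3 (Dbi, which was not among the 5). It ranged from 0 to 6 when 1 array was left out: 2, 0 and 1 without untreated wild type arrays 1, 2 and 3, and 2 and 1 without untreated R6/2 arrays 2 and 3. Averaged over treatment, 1 as reported, it was 5 with array weights and ranged from 0 to 3 when 1 array was left out: 0 without treated R6/2 array 1 or 3, treated wild type array 2 or 3, or untreated wild type array 1 or 2, 3 without untreated R6/2 array 1 or 4, and 2 without treated R6/2 array 2. For treatment in wild type mice, 0 as reported, array weights gave 2 (Fabp7 and Star, adjusted p = 0.0275 and 0.0467 in limma). The other Star probe set was below the filter and not tested. The counts in the other comparisons were 0 under every setting run. The cause of these changes was not tested. Some of these fits also held fewer arrays, and the number of arrays cannot be told apart there from which arrays were left out.

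No paired analysis was possible because the titles give a different number to every array, so no groups share replicate numbers. Signals near 3.1, such as those of the dimmer Apoe probe set, have no order.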

Other observations

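Markers of other cells of the hemisphere gave these summed signals. Markers of red blood cells, 3 in all, summed to 928 to 2146 in treated R6/2 mice, 904 to 1872 in untreated R6/2 mice, 995 to 1650 in treated wild type mice and 1979 to 3525 in untreated wild type mice. In untreated mice Alas2, the heme synthesis enzyme of red cell precursors, fell by 1.51 on the log2 scale in R6/2 (adjusted p = 0.0302 in limma). Choroid plexus markers, 3 in all, summed to 460 to 662 in treated R6/2 mice, 539 to 957 in untreated R6/2 mice, 431 to 601 in treated wild type mice and 479.9 to 734 in untreated wild type mice, with a median log2 difference of 0.33 between untreated genotypes, and none passed in untreated mice in limma (0 with an unadjusted p under 0.05). Endothelial markers, 9 in all, summed to 522 to 538 in treated R6/2 mice, 424 to 526 in untreated R6/2 mice, 420.1 to 533 in treated wild type mice and 499 to 539.5 in untreated wild type mice. None of the 8 kept passed in untreated mice in limma. An unadjusted p under 0.05 was found for 2253 of all 7453 kept probe sets and for 3 of these 8. Sum and median differ here: in untreated mice 5 of the 8 had log2 differences above 0 with a median of 0.28, while Slc2a1, the glucose transporter and the marker with the highest median signal, was at -0.64.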
